A study of Mus musculus with 6 samples.

Results

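Binding of Tfcp2l1 outside tRNA genes was compared between immortalized mouse embryonic fibroblasts (MEFs) and senescent MEFs. The Hyp library came from immortalized MEFs of the C57BL/6J strain cultured in 3% oxygen, and the Norm library from senescent MEFs of the same strain cultured in 20% oxygen. Chromatin from each was immunoprecipitated with the same anti-Tfcp2l1 antibody and tagged on the beads with the Tn5 transposase (ChIPmentation). Both cultures were carried by serial passage, so they differed at once in oxygen and in proliferative state, and these cannot be told apart. Each condition had 1 library, no control immunoprecipitation was analysed here, and no difference between Hyp and Norm has a replicate check. Peaks that overlapped a tRNA gene of the RefSeq annotation by 1 bp were set aside, which removed 125 of 612 Hyp peaks and 165 of 393 Norm peaks. The remaining 487 Hyp and 228 Norm peaks, 715 of 1005 in all, are described here. Of these, 2 Hyp and 3 Norm peaks lay within 500 bp of a tRNA gene.

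Tfcp2l1 belongs to the CP2 family of transcription factors, a branch of the Grainyhead-like proteins. These proteins bind DNA as dimers or tetramers at a paired motif. In mouse embryonic stem cells Tfcp2l1 acts in the self-renewal network with Nanog, Esrrb and Klf4. Peaks of a factor can fall at promoters, at distal elements, in repeated DNA or at loci of very high transcription.

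The Tfcp2l1 motif was searched as 2 arms, CCNGTT and AACCNG, separated by 2 free bases, on both strands in 200 bp around each summit, with at most 1 mismatch in the 10 fixed letters. It was found at 8 places in regions shared by both libraries, 7 of them in single-copy sequence, and 5 of the 8 had no mismatch. Sequences are shown for 7 of the 8, because they lie in shared regions that hold the factor's own sequence. The site near Zfp532 is single-copy but is not shown, and the Hmgn2 site is not single-copy. At Hmgn2 the motif lay in the 200 bp around the Hyp summit alone, and near Zfp532 around the Norm summit alone. At Usp22 it lay outside the Norm peak. Of the shared Hyp peaks, 3 had the site within 50 bp of the summit. Each window of 60 bases is given 5′ to 3′ on the strand of the motif, from the RefSeq sequence of GRCm38, with the site in capitals.
Malat1 upstream, chr19:5803652-5803711, plus strand: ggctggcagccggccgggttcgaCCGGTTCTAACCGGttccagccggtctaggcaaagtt
Unk promoter, chr11:116030585-116030644, plus strand: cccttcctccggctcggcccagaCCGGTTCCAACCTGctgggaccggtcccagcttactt
Pard6b downstream, chr2:168115121-168115180, minus strand: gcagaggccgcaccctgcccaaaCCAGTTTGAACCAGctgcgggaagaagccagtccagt
Xpo1 promoter, chr11:23255976-23256035, plus strand: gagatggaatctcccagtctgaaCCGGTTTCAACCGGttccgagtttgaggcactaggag
Hmgn2 promoter, chr4:133967931-133967990, plus strand: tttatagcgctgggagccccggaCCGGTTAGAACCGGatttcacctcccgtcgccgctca
Chd2 upstream, chr7:73618455-73618514, plus strand: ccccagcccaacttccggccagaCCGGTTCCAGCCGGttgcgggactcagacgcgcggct
Usp22 promoter, chr11:61175365-61175424, plus strand: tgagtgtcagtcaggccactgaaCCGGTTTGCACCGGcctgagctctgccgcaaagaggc
Of the 5 sites without a mismatch, 3 read CCGGTT in one arm and AACCGG in the other. Among the peaks called in Hyp alone, the strongest with the motif was at the promoter of Odc1, which encodes ornithine decarboxylase, the first enzyme of polyamine synthesis. Its site is shown for comparison and has 1 mismatch.
Odc1 promoter, chr12:17544875-17544934, minus strand: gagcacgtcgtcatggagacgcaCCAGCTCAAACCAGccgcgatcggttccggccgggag

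The strength of the shared peaks with these sites was read as the pileup, the number of sequenced fragments that cover the summit. It was solved from the deposited fold and p-value of each peak, at each library's own summit. The site 757 bp upstream of Malat1, an abundant nuclear long noncoding RNA, had a pileup of 66 in Hyp and 62 in Norm. Unk, which encodes an RNA-binding zinc finger protein, had 27 in Hyp and 41 in Norm at its promoter. The site 34.0 kb downstream of the start of Pard6b, a cell polarity gene, had 27 in Hyp and 12 in Norm. Libraries of different depth give different pileups for the same occupancy, so each ratio was divided by the ratio of the genome-wide backgrounds, 0.163 fragments in Hyp and 0.217 in Norm. On this scale Pard6b was 2.99 times higher in Hyp (95% interval 1.47 to 6.49, exact, counting error only, as for every interval below). The intergenic region upstream of Chd2 was 2.51 times higher (1.06 to 6.40), with 17 fragments in Hyp and 9 in Norm. Its 2 summits lay 156 bp apart, and the motif was 73 bp from the Hyp summit and 83 bp from the Norm summit. The scaled ratios of Malat1, 1.42 (0.987 to 2.04), and Unk, 0.877 (0.519 to 1.46), had intervals that held 1. Xpo1, which encodes a nuclear export receptor, had 14 fragments in Hyp and 12 in Norm. Usp22, which encodes the deubiquitinase of the SAGA complex, had 10 in Hyp and 7 in Norm. Hmgn2, a nucleosome-binding protein gene whose promoter peak has 9 other places of at least 90% identity in the genome, had 16 in Hyp and 9 in Norm. The eighth site, 2.00 kb from the start of the zinc finger gene Zfp532, had 20 in Hyp and 16 in Norm. The intervals of these 4 also held 1. The 2 summits lay 5 bp apart at Pard6b, 17 at Malat1 and 37 at Usp22. They lay 64 bp apart at Xpo1, 79 at Unk, 141 at Hmgn2 and 162 near Zfp532. Where the summits lay apart, as at Chd2, the ratio compares neighbouring places and not occupancy of the motif itself.

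Of the Hyp peaks 77 of 487 overlapped a Norm peak (15.8%, 12.7 to 19.4%), and of the Norm peaks 79 of 228 overlapped a Hyp peak (34.6%, 28.5 to 41.2%). They formed 77 shared regions, which left 410 Hyp-specific and 149 Norm-specific peaks. Specific peaks were weak. The median pileup was 7 fragments in Hyp-specific peaks, with a range of 4 to 102, and 9 in Norm-specific peaks, with a range of 6 to 32. Shared regions had medians of 27 in Hyp and 24 in Norm. These pileups, and the cut of 8 used next, are not scaled for depth. Multiplied by the ratio of the backgrounds, the Hyp-specific median becomes 9.32, against 9 in Norm-specific peaks. The raw values therefore do not rank Hyp-specific against Norm-specific peaks in strength. A pileup of 8 or less was found in 356 of 410 Hyp-specific peaks (86.8%) and in 69 of 149 Norm-specific peaks (46.3%), but in 6 of 77 shared Hyp peaks and 1 of 79 shared Norm peaks. A −log10 q of at least 10 was reached by 9 Hyp-specific peaks (2.20%), 15 Norm-specific peaks (10.1%), 54 shared Hyp peaks (70.1%) and 61 shared Norm peaks (77.2%). A peak specific to a library is one that was not called in the other, where the reads below the calling threshold are not known.

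**Figure D1:**
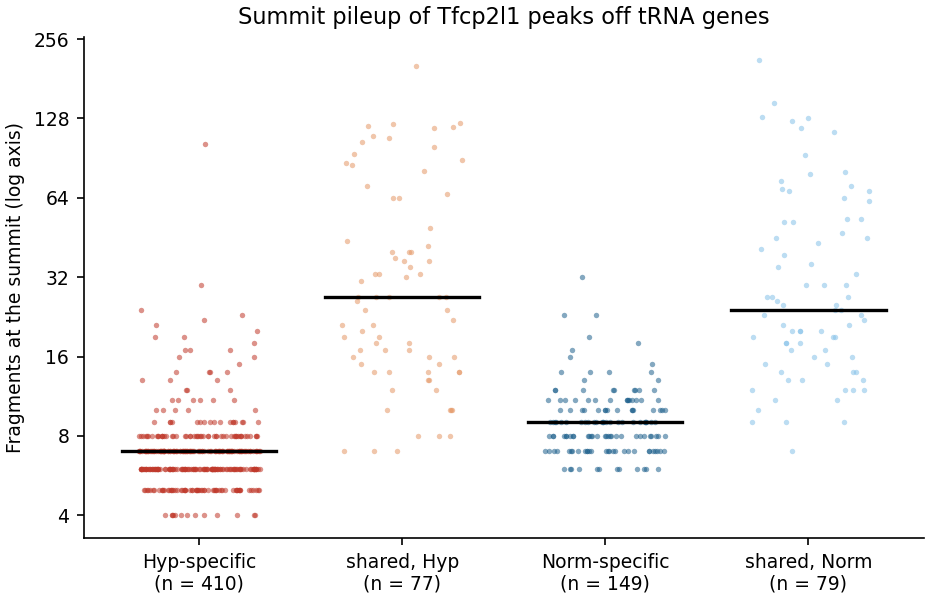
Pileup at the summit (fragments, log axis) of each off-tRNA Tfcp2l1 peak by class, with a black line at the median. Most Hyp-specific peaks sit at 8 fragments or fewer (356 of 410), and the shared peaks, with medians of 27 in Hyp and 24 in Norm, reach 203 in Hyp and 214 in Norm.

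The Hyp list was longer and reached down to a pileup of 4, against 6 in Norm. Multiplied by the ratio of the backgrounds, 397 of 410 Hyp-specific peaks (96.8%) would have a pileup of at least 6 at the Norm background. All 149 Norm-specific peaks would have at least 4 at the Hyp background. Both counts are set by the lowest pileups and the ratio. The Hyp-specific peaks left out are the 13 with 4 fragments, and no Norm peak has fewer than 6. They do not tell why a peak was called in 1 list alone. When the strongest 228 peaks of each list by −log10 q were compared, 73 Hyp peaks (32.0%, 26.0 to 38.5%) and 75 Norm peaks (32.9%, 26.8 to 39.4%) were shared, and 155 Hyp-specific and 153 Norm-specific peaks remained. Lists of equal length must give nearly equal shares, so only their level is informative.

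Pileups of the 77 shared regions had a Spearman correlation of 0.645 and a Pearson correlation of 0.853 between Hyp and Norm across regions, which share copy number and mappability and are no replicates. Summits lay close together, a median of 25 bp apart, and 60 of 77 within 50 bp. The median scaled ratio of Hyp to Norm was 1.24. In 23 regions the interval lay above 1 and in 4 below it. The 77 intervals are not adjusted for their number, so some can miss 1 by counting error alone. The regions were sorted by sequence into kinds that were defined after the peaks had been seen. Their ratios are described by kind, with no test between kinds.

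All 5 shared regions at the ribosomal RNA locus of chromosome 17 had a higher pileup in Hyp, but 4 of the 5 had a lower fold over the local background there. They lie in Gm26917 (chr17:39843013-39846341) and in the adjoining rRNA gene CT010467.1 (chr17:39846353-39848827). Their pileups were 122, 120, 119, 118 and 100 in Hyp and 69, 68, 52, 68 and 74 in Norm, in the same order. The scaled pileup ratios ran from 1.80 to 3.05 with a median of 2.35, and each interval lay above 1. The folds over local background, in that order, were 3.04, 2.79, 2.77, 2.74 and 2.33 in Hyp and 3.26, 2.94, 2.26, 2.94 and 3.20 in Norm. The local background was thus raised in Hyp along with the summits, and in 4 of the 5 the summits did not stand out more from it. The exception had 119 fragments in Hyp, a fold of 2.77 in Hyp and 2.26 in Norm, and the highest scaled ratio, 3.05. These 5 are neighbouring regions of 1 locus and are no replicates. The rDNA exists in many copies that the assembly does not hold, so reads from any of them can fall on this locus, and their part in the ratio was not tested.

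Another 19 shared regions were under 50% masked and had at least 1 further place in the genome with 90% identity over 100 bases, or too few unique words to count as single-copy. Their pileups were also higher in Hyp, with a median scaled ratio of 2.37, all 19 above 1, and 12 intervals above 1. A region in an intron of Gphn (chr12:78350859-78351129) had 49 fragments in Hyp and 14 in Norm, the highest scaled ratio of all shared regions at 4.66 (2.53 to 9.14). A region in an intron of Cdk8, which encodes a Mediator kinase, had 44 in Hyp and 16 in Norm, and one 16.5 kb upstream of Limd1, a LIM domain gene, had 85 in Hyp and 36 in Norm. The intergenic region chr3:5860486-5860822, with 16 further places in the genome, had 87 in Hyp and 35 in Norm. The region near Ly6c2 had 89 in Hyp and 64 in Norm. Of these 19 regions, 16 were open in all 4 ATAC-seq libraries. A region 198 kb from Samd9l had 37 fragments in Hyp and 17 in Norm, and it matched the rRNA locus of chromosome 17 over its whole length. It was the only 1 of the 19 that matched annotated rRNA sequence at 80% identity over 50 bases. The annotation used holds 420 bases of the 28S rRNA gene, so whether other regions of this kind are further copies of it was not tested. A resemblance of some of them to 28S rRNA was seen by eye only. The lowest ratio of the kind, 1.08 (0.827 to 1.41), was in an intron of Chl1, a cell adhesion gene, with 104 in Hyp and 128 in Norm.

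The 23 shared regions with at least 50% of their bases masked lay closer to the background ratio. Their median scaled ratio was 1.17, with only 2 intervals above 1 and none below. They included the region with the highest −log10 q in each list, 37.4 kb from Rpusd4 on chromosome 9, with 123 fragments in Hyp and 147 in Norm and a scaled ratio of 1.11 (0.869 to 1.42). The highest pileup of all, at Gm10800 on chromosome 2, was 203 in Hyp and 214 in Norm. The intergenic region chr12:3109813-3110115 had 71 in Hyp and 79 in Norm. The largest family of peaks alike in sequence, defined by 85% identity over 100 bases, had 21 loci and 39 peaks with a median of 93.0% of bases masked. No list of excluded regions was applied here, and the part of repeat mapping in these peaks was not tested.

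**Figure D2:**
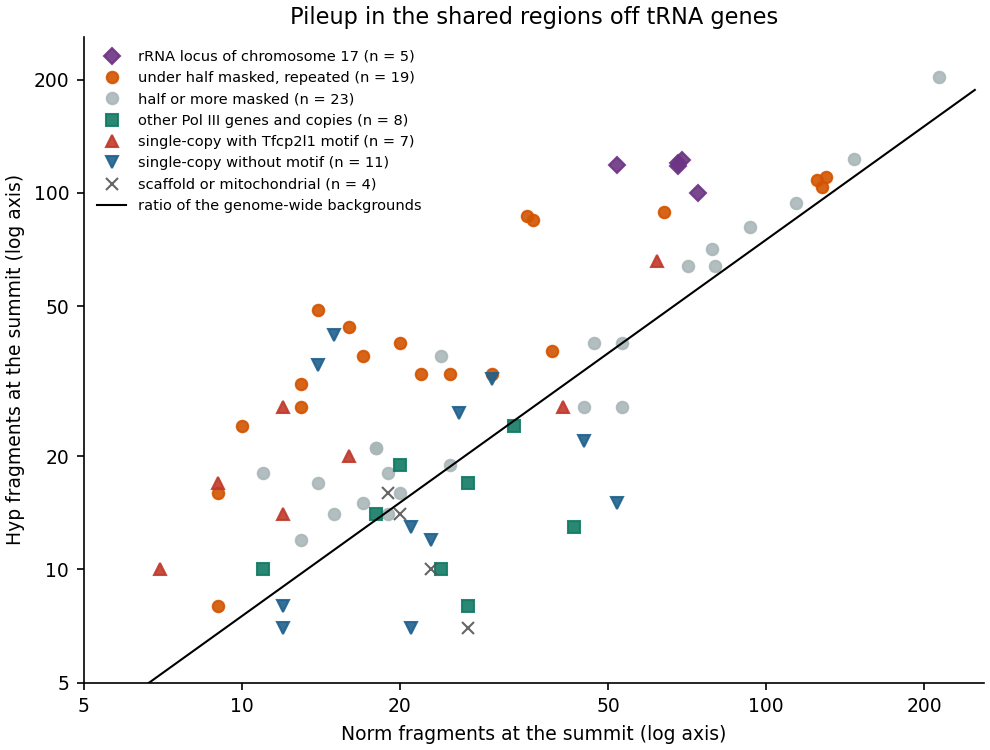
Summit pileup in Hyp (y axis, fragments, log) and in Norm (x axis, fragments, log) for the 77 shared regions, marked by kind of sequence; the line shows the ratio of the genome-wide backgrounds. The 5 rRNA regions and all 19 repeated regions under 50% masked lie above the line, and the 8 Pol III regions lie around or below it.

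Other genes of RNA polymerase III stayed in the lists after the tRNA genes were removed. This polymerase makes short structural RNAs besides tRNA, and 8 shared regions lay on such genes or their copies. Their median scaled ratio was 0.903, with no interval above 1 and 2 below. The 7SL gene Rn7s2, the RNA of the signal recognition particle, had 13 fragments in Hyp and 43 in Norm, a scaled ratio of 0.402 (0.199 to 0.762). The vault RNA gene Vaultrc5 had 8 in Hyp and 27 in Norm, a scaled ratio of 0.394 (0.155 to 0.892). 7SK, which holds back the elongation factor P-TEFb, had 17 in Hyp and 27 in Norm, and Rmrp, the RNA of RNase MRP, had 19 in Hyp and 20 in Norm. The intervals of both held 1, as did those of 2 U6 genes, with 14 and 10 in Hyp and 18 and 11 in Norm. Norm-specific peaks covered 7SL Rn7s1 beside Rps29, with a pileup of 23 and the highest −log10 q of the class, and Rpph1, the RNA of RNase P. On or at copies of such genes lay 3 of 410 Hyp-specific peaks (0.732%, 0.151 to 2.12%) and, with 1 unannotated copy of a tRNA gene among them, 6 of 149 Norm-specific peaks (4.03%, 1.49 to 8.56%).

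Single-copy shared regions outside these loci numbered 18. In the 7 with the motif the median scaled ratio was 1.66, with 6 above 1 and 2 intervals above 1. In the 11 without it the median was 0.824, with 4 above 1, 2 intervals above 1 and 1 below. The 1 below was the region nearest to Ezh2, with 15 fragments in Hyp and 52 in Norm. It is single-copy by the rule used here, but belongs to a sequence family of 10 loci that includes 4.5S RNA copies. A region 91.6 kb downstream of the start of Axin2, a target and inhibitor of Wnt signalling, had 42 fragments in Hyp and 15 in Norm, a scaled ratio of 3.73 (2.02 to 7.23). A region 2.29 kb from the start of Arrdc3, an arrestin family gene, had 35 in Hyp and 14 in Norm, a scaled ratio of 3.33 (1.75 to 6.70). The promoters of Kmt2a, a histone H3K4 methyltransferase gene, with 26 fragments in both libraries, and of Rnf44, with 13 in Hyp and 21 in Norm, had intervals that held 1.

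The share of peaks with the motif was 7 of 74 in shared Hyp peaks (9.46%, 3.89 to 18.5%) and 7 of 76 in shared Norm peaks (9.21%, 3.78 to 18.1%). It was 6 of 399 in Hyp-specific peaks (1.50%, 0.554 to 3.24%) and 0 of 145 in Norm-specific peaks (0 to 2.51%). Windows of the same length at the centres of all merged ATAC regions held it in 0.665% (1132 of 170337). Among single-copy shared Hyp peaks it was 6 of 23 (26.1%, 10.2 to 48.4%). Without a mismatch it was in 5 shared Hyp peaks and 4 shared Norm peaks, in no specific peak of either list, and in 40 ATAC regions (0.0235%). The 6 Hyp-specific sites lay at Odc1 (pileup 15), 43.8 kb from Slc20a1 (12), and near Camk2b, Gm6408, Smpd5 and Rabepk (5 to 7 fragments). The GC box GGGCGG was in 17 of 74 shared Hyp peaks (23.0%, 14.0 to 34.2%) and 18 of 76 shared Norm peaks (23.7%, 14.7 to 34.8%), in 7.27% of Hyp-specific and 8.97% of Norm-specific peaks, and in 12.2% of ATAC regions. The AP-1 motif TGANTCA was in 5.51% of Hyp-specific, 6.21% of Norm-specific and 7.68% of ATAC windows, and in 2 shared Hyp and 3 shared Norm peaks. The CRE (TGAC followed by GTCA) was in 1.50% of Hyp-specific and 1.38% of Norm-specific peaks and in 0.399% of ATAC windows. The B box of tRNA genes was in 1 shared region, the vault RNA gene. A match describes the letters in a window and not a bound site.

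Specific peaks of the 2 lists differed in their distance to genes. At most 1 kb from where transcription of a protein-coding gene starts (the TSS) lay 24 of 410 Hyp-specific peaks (5.85%, 3.79 to 8.58%) and 27 of 149 Norm-specific peaks (18.1%, 12.3 to 25.3%), and these intervals did not overlap. Restricted to single-copy sequence the shares were 21 of 281 in Hyp-specific peaks (7.47%, 4.69 to 11.2%) and 21 of 88 in Norm-specific peaks (23.9%, 15.4 to 34.1%). With the strongest 228 peaks of each list the intervals overlapped slightly, at 7.10% of Hyp-specific peaks (3.60 to 12.3%) and 17.6% of Norm-specific peaks (12.0 to 24.6%). In shared peaks 16 of 77 in Hyp (20.8%) and 17 of 79 in Norm (21.5%) lay within 1 kb. The median distance was 40.1 kb in Hyp-specific, 31.8 kb in Norm-specific, 24941 bp in shared Hyp and 24970 bp in shared Norm peaks. Introns held 33.2% of Hyp-specific and 30.9% of Norm-specific peaks but 15.6% of shared Hyp and 15.2% of shared Norm peaks.

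**Figure D3:**
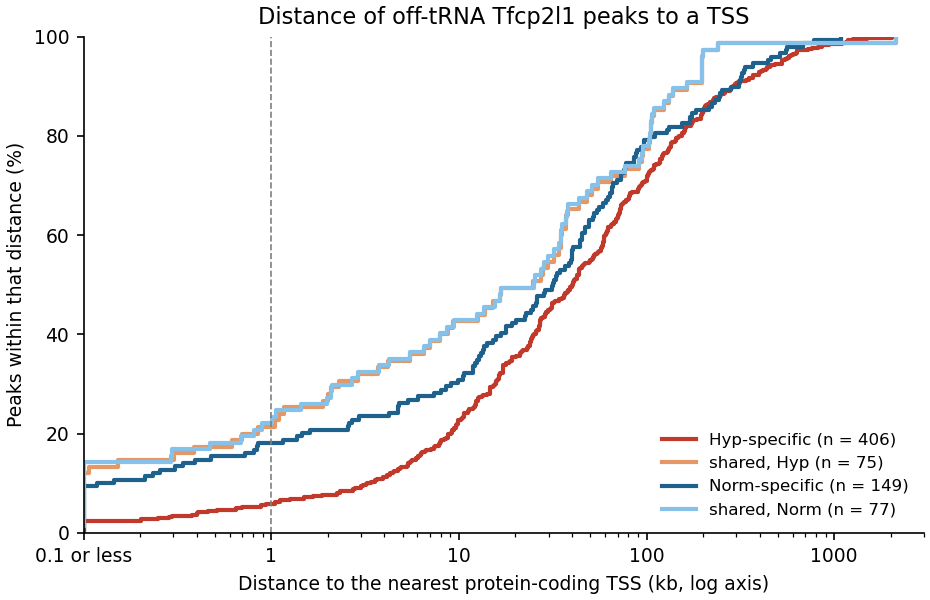
Cumulative share of peaks (%) by distance to the nearest protein-coding TSS (kb, log axis) for the 4 classes, with a dashed line at 1 kb. At the line the curve of Hyp-specific peaks stands at about 6% and those of the other 3 classes between 18% and 22%.

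The promoter peaks were examined by name after their values had been seen. Among the Hyp-specific ones the highest −log10 q was at Mgea5, which encodes O-GlcNAcase, with a pileup of 18 and an ATAC peak in all 4 libraries, followed by Odc1. The pileup was highest at Sfi1, a centrosome gene, with 24, but over a local background of 4.35 fragments. Its fold of 4.67 lay below the median of 5.99 in Hyp-specific peaks. The others in single-copy nuclear sequence had 5 to 8 fragments, among them Fn1, which encodes fibronectin (6), Kmt2d, another H3K4 methyltransferase gene (6), and Snrnp200, a spliceosomal helicase gene (6). Norm-specific promoter peaks included Paxip1, an adaptor of H3K4 methyltransferase complexes (12), Flcn, folliculin (12), Wasf1, an actin regulator (11), Prdm10 (11), Hspe1, a mitochondrial chaperonin gene (10), Hdac2, a histone deacetylase gene (9), and Cenpn, a centromere gene (7). An ATAC peak of some library covered 13 of 24 Hyp-specific promoter peaks (54.2%, 32.8 to 74.4%) and 23 of 27 Norm-specific ones (85.2%, 66.3 to 95.8%). Away from promoters it covered 86 of 386 Hyp-specific peaks (22.3%, 18.2 to 26.8%) and 13 of 122 Norm-specific peaks (10.7%, 5.80 to 17.5%). The Hyp-specific share was the lower one at promoters, with overlapping intervals, and the higher one away from them, with intervals apart.

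The strongest specific peaks were mostly not in single-copy sequence. Among the 10 Hyp-specific peaks with the highest −log10 q, 9 lay 27.0 kb from Myl12b (pileup 30, 7 further copies in the genome), 15.7 kb from Gm6020 (16), in an intron of Smo (21, 98.6% masked), at the Mgea5 promoter, on chr18:3005431-3005861 (17), at the Odc1 promoter, 58.2 kb from Tspan3 (10), on the rRNA gene of chromosome 17 (102) and on chr3:8245966-8246340 (13). The Norm-specific ones lay at Rps29 with Rn7s1 (23), on the mitochondrial genome (chrM:15606-15817, 32), on a 4.5S RNA copy upstream of Ezh2 (14), on an unplaced scaffold (19), 73.4 kb from Atp11b (15), 12.5 kb from Pvr (16), in an intron of Elmo1 (chr13:20413697-20413880, 12), 10.6 kb from Gm36079 (12), on chr1:81923938-81924123 (13) and 96.8 kb from Gramd3 (14). Of the peaks given, Mgea5 and the rRNA peak in Hyp and the Elmo1 intron in Norm were single-copy by the rule used here.

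Single-copy sequence made up 281 of 410 Hyp-specific peaks (68.5%), 88 of 149 Norm-specific peaks (59.1%), 23 of 77 shared Hyp peaks (29.9%) and 23 of 79 shared Norm peaks (29.1%). Among peaks under 50% masked, 25 of 308 Hyp-specific (8.12%) and 11 of 101 Norm-specific peaks (10.9%) had a copy elsewhere, as did 26 of 49 shared Hyp (53.1%) and 29 of 54 shared Norm peaks (53.7%). Masked sequence of at least 50% was found in 22.8% of Hyp-specific, 30.3% of Norm-specific, 33.8% of shared Hyp and 28.9% of shared Norm peaks. A perfect tandem repeat of a unit of up to 6 bases over at least 24 bases occurred in 80 of 399 Hyp-specific peaks (20.1%, 16.2 to 24.3%) and 43 of 145 Norm-specific peaks (29.7%, 22.4 to 37.8%), and in 7 of 74 shared Hyp peaks (9.46%) and 8 of 76 shared Norm peaks (10.5%). In all, 154 peaks at 107 loci belonged to 18 families alike in sequence.

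**Figure D4:**
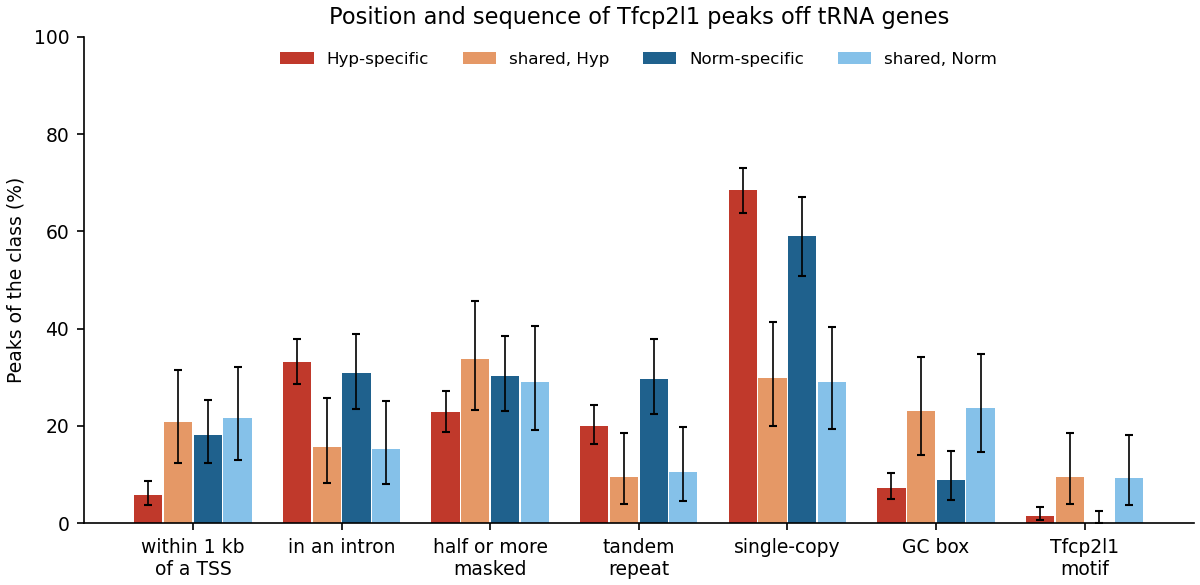
Share of peaks (%) of each class with a given position or sequence feature, with 95% exact intervals as bars. Hyp-specific peaks stand apart in TSS proximity (5.85%, against 18.1% in Norm-specific peaks), and the shared classes in single-copy sequence (29.9% in Hyp and 29.1% in Norm).

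Accessibility was taken from 4 ATAC-seq libraries of MEFs, 1 per condition. The labels call them Hyp-Imm (immortalized, 3% oxygen), Norm-Sen (senescent, 20% oxygen), Hyp-Pro (3% oxygen, passage 1) and Norm-Pro (20% oxygen, passage 1), but their file names give, in that order, senescent in normoxia, passage 1 in hypoxia, passage 1 in normoxia and immortalized in hypoxia. No comparison between these libraries is drawn, and the names used below are those of the labels. Promoters of fibroblast markers were open at 4, 8, 8 and 6 of 15 genes in that order, and those of haematopoietic markers at 3, 1, 0 and 0 of 4. Those of endothelial markers were open at 1, 1, 2 and 1 of 4, and of epithelial markers also at 1, 1, 2 and 1 of 4. Neural ones were open at 1, 2, 2 and 2 of 4. Hyp-specific peaks overlapped an ATAC peak in 9.76% of cases for Hyp-Imm, 14.9% for Norm-Sen, 11.2% for Hyp-Pro and 12.9% for Norm-Pro. For Norm-specific peaks these shares were 11.4%, 18.8%, 17.4% and 18.1%. Shared Hyp peaks were open in 74.0%, 76.6%, 71.4% and 79.2% of cases, and shared Norm peaks in 72.2%, 74.7%, 70.9% and 74.7%. No ATAC peak was found at 311 of 410 Hyp-specific peaks (75.9%), 113 of 149 Norm-specific peaks (75.8%), 12 of 77 shared Hyp peaks (15.6%) and 12 of 79 shared Norm peaks (15.2%). The ATAC peaks covered between 0.181% (Hyp-Imm) and 0.380% (Norm-Pro) of the genome. In single-copy sequence 20 of 23 shared Hyp peaks (87.0%), 58 of 281 Hyp-specific (20.6%) and 22 of 88 Norm-specific peaks were open in some library. These shared peaks include 3 at the rRNA locus. Of the 18 single-copy shared regions outside that locus and the genes of RNA polymerase III, 15 were open in some library. Of the shared sites with the motif, the Pard6b, Hmgn2 and Zfp532 sites were closed in all 4 libraries and the Malat1 site was open in 2 of them.

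**Figure D5:**
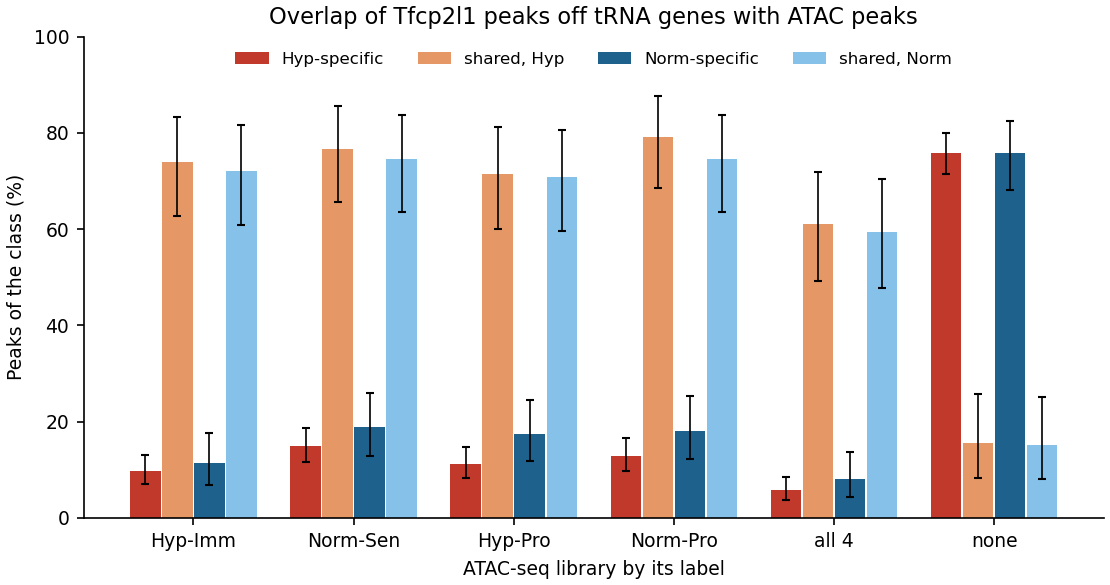
Share of peaks (%) of each class that overlap a peak of each ATAC-seq library by its label, of all 4 or of none, with 95% exact intervals. About 3 in 4 shared peaks are open in each library (70.9 to 79.2%), against 9.76 to 18.8% of the specific peaks.

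Genes near peaks were assigned by the rule of GREAT, in which each TSS has a domain of 5 kb upstream and 1 kb downstream extended up to 1 Mb. Of 21992 protein-coding genes 767 had a Hyp peak in their domain (3.49%), 339 a Norm peak (1.54%) and 116 both (0.527%). Of the 116, 98 owed this to a shared region and 18 to separate peaks. Genes with a Hyp peak alone numbered 651 and those with a Norm peak alone 223, which became 237 and 235 when the strongest 228 peaks of each list were used.

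The study named Sox2, Sox9, Jarid2, Ezh2 and Tgfa. Sox2, a pluripotency factor, had a single Hyp-specific peak in its domain, 477 kb upstream, with a pileup of 6, −log10 q of 3.97 and an ATAC peak in 1 library. Sox9 had 2 Hyp-specific peaks, 3.14 kb upstream and 258 kb downstream, each with 7 fragments and no ATAC peak. Tgfa, a ligand of the EGF receptor, had a Hyp-specific peak 90.4 kb downstream, also with 7 fragments and no ATAC peak. No Norm peak was called in these 3 domains. All 4 peaks belong to the 356 Hyp-specific peaks with 8 fragments or fewer. The study also reported Tfcp2l1 binding by ChIP-qPCR at regions of Sox2, Sox9 and Tgfa, with IgG and a gene desert as negative controls. Those measurements are not part of the peak lists described here. Tfcp2l1 itself had no off-tRNA peak in its domain. Its promoter had an ATAC peak in 3 of 4 libraries.

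Jarid2, an accessory subunit of Polycomb repressive complex 2, had a shared region in an intron, 140 kb downstream of its start, with 27 fragments in Hyp and 13 in Norm and a scaled ratio of 2.76 (1.38 to 5.84). It was open in all 4 ATAC libraries. Its sequence is not particular to Jarid2: 14 other places of the genome had at least 90% identity, and together they covered 94.4% of the Hyp peak. It did not match the annotated part of 28S rRNA or the rRNA locus of chromosome 17 at 80% identity over 50 bases. A resemblance to the rest of 28S rRNA was seen by eye only and was not measured. Whether the reads came from this intron or from copies elsewhere was not tested. The 120 bases around the Hyp summit are shown so that they can be compared, on the plus strand, with the central 30 bases in capitals.
Jarid2 intron, chr13:44869590-44869709: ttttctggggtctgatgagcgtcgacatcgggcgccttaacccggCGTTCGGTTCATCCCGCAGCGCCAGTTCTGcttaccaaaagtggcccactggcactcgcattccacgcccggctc
Ezh2, the methyltransferase of the same complex, had peaks at 5 places upstream, at 55.6, 145, 153, 177 and 183 kb. The nearest was shared and single-copy, with 15 fragments in Hyp and 52 in Norm, a scaled ratio of 0.384 (0.201 to 0.693), lower in Hyp. The region at 153 kb had 24 in Hyp and 33 in Norm, and that at 183 kb 10 in Hyp and 24 in Norm, with intervals that held 1. The peak at 177 kb was Hyp-specific (9) and that at 145 kb Norm-specific (14). The 4 farther places were 96.1 to 98.9% identical to the 4.5S RNA gene, a small RNA of rodents made by RNA polymerase III, and the nearest belongs to the same family of 10 loci by sequence. Jarid2 and Ezh2 were the only 2 of 31 Polycomb genes with peaks of either list, and they had both.

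Gene lists were chosen with earlier results of these data known and are given as counts, to be read beside the shares over all genes, 3.49% with a Hyp peak, 1.54% with a Norm peak and 0.527% with both. At these sizes most counts lie within 1 or 2 genes of those shares, and nothing is read from them about a list. Of 29 genes of the pluripotency network 3 had a Hyp peak and 3 a Norm peak. Prdm14, which guards naive pluripotency, had a Hyp-specific peak of 9 fragments 19.3 kb from its start. Klf2, Tet2 and Gbx2 had Norm-specific peaks of 8, 8 and 7 fragments. Of 19 Sox genes 3 had a Hyp peak (Sox2, Sox9 and Sox11) and 0 a Norm peak. Of 6 CP2 and Grainyhead genes only Grhl2 had a peak, in Norm (7). None of 24 CDK inhibitors and p53 targets and none of 31 genes of the RNA polymerase III machinery had an off-tRNA peak of either list. Of 50 Wnt genes 3 had a Hyp peak, Axin2, Fzd10 and Sfrp2, and Axin2 alone a Norm peak. Of 42 hypoxia response genes Hif1a (8, in an intron of Prkch) and Tgfa had a Hyp peak and none a Norm peak. Of 40 senescence-associated secretory genes only Il1b had a peak, in Hyp (6). Of 38 cell cycle genes Mcm5 had a Hyp peak (8) and Ccnd3 a Norm peak (9). Of 35 TGF-β and BMP genes Grem1 and Nog had Hyp peaks (8 and 7), and Ski had Norm peaks at its promoter (10) and 120 kb downstream (9). Of 30 fibroblast and matrix genes Fn1 and Pdgfra had Hyp peaks (6 each) and none a Norm peak. With the exceptions of Axin2, Ezh2 and Jarid2, no peak near these list members was shared, and none but those near these genes had more than 10 fragments.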

How the data were processed

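Peaks of 2 Tfcp2l1 ChIP-seq and 4 ATAC-seq libraries of MEFs were analysed, with 1 library per condition. For ChIP-seq the submitters' notes name Bowtie and MACS2, whose versions and settings are not stated for these libraries, and the coordinates were read as GRCm38 (mm10), the build of the study's genome tracks. For ATAC-seq the authors aligned pairs with Bowtie2 to GRCm38, dropped distant pairs, took the Tn5 cut position of each read and called peaks per library with MACS2. The deposited files hold, for each peak, the fold of summit pileup over local background as a ratio, the −log10 p-value and the −log10 q-value, all made by the authors with MACS2. Fold and −log10 q-value rank peaks within a library, and fold is set side by side between libraries at the rRNA locus only.

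Whole pileups were solved from fold and p-value, with a largest error of 6.92e-05 in Hyp and 0.00011 in Norm on the −log10 p scale. The lowest local background of a library was taken as its genome-wide background. Fragments are not independent molecules, since no molecular identifiers were used, so all intervals cover counting error only. Intervals of shares are 95% exact Clopper-Pearson intervals, and those of scaled ratios come from the exact binomial interval of the 2 pileups. No test between conditions was made. The pileup solution, the motif search, the overlaps, the gene domains and the intervals of shares were tested on simulated or hand-set cases. The other steps, among them the search for copies, the unique words, the sequence families and the rRNA match, had no such test.

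Positions are 1-based. tRNA genes (403 nuclear and 425 in all) and masked bases came from RefSeq GRCm38.p6, and genes from GENCODE vM21. A peak was called single-copy when it lay on a chromosome or the mitochondrial genome, was under 50% masked, had at least 80% of its 49-base words once in the genome and no second place with 90% identity over 100 bases (BLAST 2.17.0). Peaks on scaffolds had no sequence here and are left out of sequence shares. Python 3.11.15, pandas 2.3.3, numpy 2.4.6 and scipy 1.17.1 were used.

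The peaks compared and the gene lists were chosen with earlier results of these data known. Named were, in each class, the 10 peaks of highest −log10 q, the genes the study names, list genes with peaks of both libraries, up to 4 members of each list, and shared or promoter peaks with the motif. The single-copy rule, the kinds of shared region and all other named regions and promoter genes were chosen after their values were seen. Of the 10 Hyp-specific peaks so chosen, 1 is not reported here. Alternatives covered the list length, a −log10 q of 5, unique sequence, tRNA and other Pol III genes, the overlap, the TSS set, the ATAC peaks used, the gene rule and the motif.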

Additional observations from a re-analysis of the deposited data

How the results depend on the processing

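Of 156 values under other settings, 115 stayed within the main 95% interval or, for gene counts, within 1.5 times the main count. With the strongest 228 peaks of each list, the shared share of Hyp peaks was 32.0%, Hyp-specific peaks in ATAC Hyp-Imm 16.8% and genes with a Hyp peak alone 237. With a −log10 q of at least 5 these were 30.1%, 18.2% and 248. With at least 80% unique words the shared share was 9.07% in Hyp and 22.6% in Norm, the masked share 18.3% in Hyp-specific, 22.0% in Norm-specific and 5.56% in shared peaks, and genes of both lists 64. With tRNA peaks kept, the shared share was 31.7% in Hyp and 49.6% in Norm, the masked share 22.7% in Norm-specific and 13.1% in shared peaks, shared peaks in ATAC Hyp-Imm 35.6%, genes of both lists 247 and the motif share in Norm-specific peaks 2.58%. In single-copy peaks, chosen after the data were seen, the shared share was 7.24% in Hyp and 19.8% in Norm, the motif share of shared peaks 27.3%, genes of both lists 40 and of Norm alone 145.

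With the TSS of all genes, 11.7% of Hyp-specific and 40.3% of shared peaks lay within 1 kb. Within 5 kb lay 13.2% of Hyp-specific, 26.2% of Norm-specific and 33.8% of shared peaks. The summit base was masked in 28.6% of Hyp-specific peaks. With ATAC peaks of −log10 q of at least 5, 5.12% of Hyp-specific peaks were open in Hyp-Imm. With conditions by file name, 11.4% of Norm-specific peaks were open in senescent cells. With the summit inside the ATAC peak, 5.85% of Hyp-specific peaks were open in Hyp-Imm and 12.1% of Norm-specific peaks in Norm-Sen. By the nearest TSS within 100 kb, 265 genes had a Hyp peak alone, 54 both and 107 a Norm peak alone. The motif without mismatch was in 0% of Hyp-specific peaks (0 to 0.920%). With 2 mismatches it was in 12.0% of Hyp-specific, 9.66% of Norm-specific and 20.3% of shared peaks, and in 9.75% of ATAC regions. The order of the classes, shared above specific peaks in ATAC overlap and motif share, and Norm-specific above Hyp-specific peaks in TSS proximity, held in each of these settings that bears on it. Causes of these changes were not tested beyond what each setting changes by construction.

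Most specific peaks rest on few fragments, and 1 library per condition gives no replicate error. No paired analysis was possible because each condition had 1 library.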

Other observations

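Chromosome X held 22 of 410 Hyp-specific peaks (5.37%, 3.39 to 8.01%) and 2 of 149 Norm-specific peaks (1.34%, 0.163 to 4.76%), and the intervals overlapped. In single-copy sequence it held 11 of 281 Hyp-specific and 1 of 88 Norm-specific peaks. Among the 18 families alike in sequence, 1 of 16 loci held only specific peaks, 7 in Hyp and 9 in Norm. Families of 7, 6, 6 and 2 loci also held only specific peaks. Over all off-tRNA peaks, 410 of 487 in Hyp and 149 of 228 in Norm were specific, so nothing is read from this.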
